A study of Mus musculus with 4 samples.

Results

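The genes described are Esrp1 and Esrp2, the epithelial splicing regulatory proteins, and 8 other RNA-binding regulators of alternative splicing that act beside them: Celf1, Celf2, Mbnl1, Mbnl2, Rbfox2, Ptbp1, Srsf1 and Srsf3. They were chosen by name, 10 of 21755 protein-coding genes on the autosomes and the X chromosome. What was measured is open chromatin over each gene, not its RNA or protein. The level of a gene is the number of transposase cut sites in peaks that touch the gene body or the 2000 bp upstream of it, scaled by the library's total of counts in peaks (CPM). The promoter level counts only peaks within 1000 bp of a transcription start site of a protein-coding transcript.

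Alternative splicing joins different exons of 1 gene into different mRNAs, and the choice depends on which regulatory proteins sit on the pre-mRNA. Esrp1 and Esrp2 favour the exons used by epithelial cells, and Esrp2 is the form known to promote the adult splicing pattern of hepatocytes. Celf and Mbnl proteins often oppose each other and set the switch from fetal to adult exons in several tissues. Ptbp1 mostly represses exons, Rbfox2 acts on exons flanked by its UGCAUG element, and the SR proteins Srsf1 and Srsf3 mostly promote exon inclusion.

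Hepatocytes were isolated by collagenase perfusion from the livers of mice given as 10 to 12 weeks old, fed a normal diet, either undamaged (0 h) or taken 48, 72 and 96 h after PHx (partial hepatectomy, an operation that removes liver lobes and is followed by regrowth). According to the methods of the study the animals were adult males, and the libraries of 0 and 48 h were each made from the cells of a single liver. The sources used here do not say whether cells of several animals were pooled for 72 and 96 h. Single-nucleus ATAC-Seq (scATAC-Seq) was run with 1 library per time point and no replicates, so a difference between time points is a difference between 2 libraries, and no test between them was possible. All intervals given are 95% intervals of counting error.

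Depth was highest at 0 h and lowest at 96 h. Nuclei, meaning barcodes with at least 1000 counts in peaks, numbered 3977, 3892, 4256 and 3224 at 0, 48, 72 and 96 h and held 136582768, 62000846, 24724883 and 14935507 counts. Peaks had been called in each library on its own, and they covered 154, 179, 141 and 60.9 Mb. Across genes the log2 ratio of counts followed the log2 ratio of covered length, with Pearson's r between 0.842 and 0.904 for the 3 later libraries against 0 h (15327 genes, gene level, which share the 0 h library), and levels of different libraries are to be read with the covered length in mind. Hepatocyte-like nuclei, in which 0 of 10 hepatocyte markers were 2-fold lower than in their library as a whole, made up 92.5%, 94.5%, 93.3% and 97.5% of nuclei. As they form most of each library, that count is largely set by the comparison and does not by itself identify them. Between 27 and 60 barcodes were shared by any 2 libraries.

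Esrp2 lay under some of the longest peaks of these libraries and had the highest or second highest level per kb of covered peak of the 10 genes at every time point. The gene spans 6656 bp on the minus strand (chr8:106130319-106136974, mm10) and has 1 group of start sites. At 0 h a single peak of 15867 bp ran from position -4601 relative to the start to 4610 bp past the end of the gene, and only 0.465% of the peaks of that library were as long or longer. The peaks of 48 and 72 h were also single and measured 12935 and 12104 bp. At 96 h the gene held 3 shorter peaks of 4073, 488 and 1607 bp. These peaks also cover the antisense gene 1810019D21Rik, and the counts carry no strand, so signal of the 2 genes cannot be told apart.

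The level of Esrp2 was 161 CPM at 0 h (interval 158 to 164), 118 CPM at 48 h (114 to 122), 108 CPM at 72 h (102 to 114) and 122 CPM at 96 h (115 to 131). All 3 libraries after PHx were thus lower than that of 0 h, with intervals that do not overlap it, and 72 h was the lowest. The log2 ratios to 0 h were -0.45, -0.58 and -0.40, each short of the 1.5-fold limit used to call a gene higher or lower. Among all 15500 genes tested these ratios stood at percentiles 12.8, 16.3 and 24.1. In bulk-like sums of this kind fewer open nuclei and less signal per nucleus cannot be told apart.

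Covered length differed in the same direction as the counts of Esrp2. The log2 ratios of its covered length to that of 0 h were -0.29, -0.39 and -1.36 in time order. The promoter level, which at 96 h counts only the 4073 bp peak, was 95.6 CPM there, with a log2 ratio of -0.75. Per kb of covered peak the order of the libraries changed: 10.2, 9.10 and 8.89 CPM per kb at 0, 48 and 72 h, but 19.8 at 96 h, where nearly all genes were higher on that scale. The per kb log2 ratios of Esrp2 at 48 and 72 h were -0.16 and -0.19, beside medians of -0.21 and 0.17 over all genes. A count over whole merged regions, chosen after seeing the data, takes peaks that overlap in any library as 1 region and counts it in every library. On it Esrp2 had 165, 128, 111 and 134 CPM, and the log2 ratios were -0.36, -0.57 and -0.31. By counts the level of Esrp2 was thus lower after PHx with or without the neighbouring peaks, and at 96 h its ratio ranged from -0.75 to -0.31 with the peaks that were included. No region of Esrp2 qualified for a comparison at nearly equal peak length, so the part of length in these counts was not tested.

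Esrp1, the paralog that is known from other epithelia, was the least open member per kb of covered peak at 0 h, with 3.07 CPM per kb against 10.2 for Esrp2. This gene of 54851 bp lies on the minus strand (chr4:11331933-11386783). Its levels were 9.97 CPM at 0 h (9.24 to 10.7), 23.5 CPM at 48 h (21.8 to 25.2), 23.1 CPM at 72 h (20.5 to 25.9) and 15.2 CPM at 96 h (12.5 to 18.3). Every library after PHx was higher than that of 0 h, and those of 48 and 72 h lay within each other's intervals. The log2 ratios were 1.19, 1.17 and 0.58, at percentiles 96.0, 92.0 and 81.6 of all genes tested. Esrp1 and Esrp2 thus stood on opposite sides of their 0 h level in all 3 later libraries, which share that 0 h library. For Esrp1 at 96 h this rests on the upstream window: with the gene body alone the 13.3 CPM peak before the start is left out, and the log2 ratio there was -2.10.

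Nearly all of the Esrp1 signal sat at its first start group. The peak there measured 3244 bp at 0 h and 5668 bp at 48 h. At 72 h it was split into peaks of 2635 and 1221 bp, and at 96 h the larger of 2 peaks ended 355 bp upstream of the start, so the start site itself lay in no peak. The log2 ratio of covered length was 0.85 at 48 h, against 1.19 for counts, and 0.35 at 72 h, against 1.17. Per kb the ratio at 48 h was 0.39, short of 1.5-fold. Per kb of covered peak the level was 3.07, 4.02, 5.59 and 9.09 CPM at 0, 48, 72 and 96 h. A second start group, 19.6 kb into the gene, held 0.403 CPM at 48 h and no peak in the other 3 libraries, which means that none was called there and not that the site was closed.

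**Figure D1:**
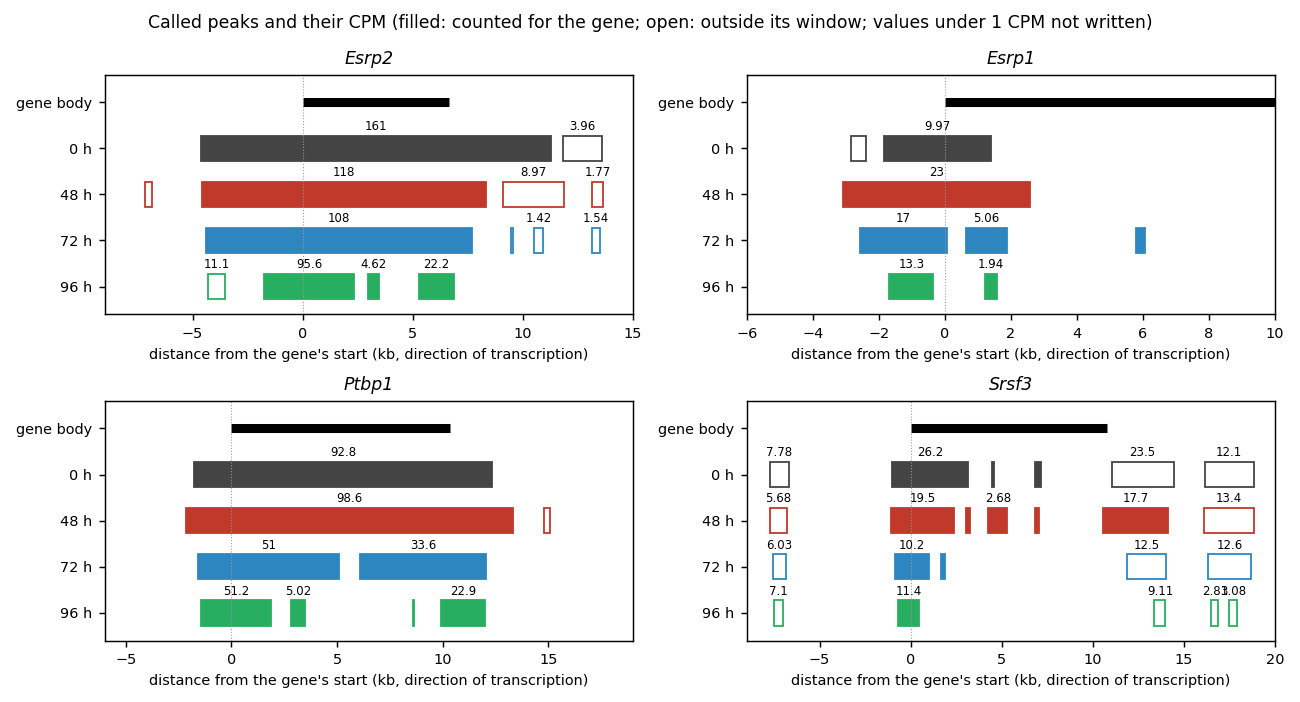
Called peaks at Esrp2, Esrp1, Ptbp1 and Srsf3 in the 4 libraries, by distance in kb from the gene's start in the direction of transcription, with the CPM of each peak above it. The single Esrp2 peak of 0, 48 and 72 h (161, 118 and 108 CPM) is 3 peaks at 96 h, and the Srsf3 peak past the end of the gene is counted for that gene at 48 h alone.

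The 2 Celf genes differed from each other. Celf1, a regulator of fetal exon choice and mRNA decay, had levels of 115, 131, 91.5 and 76.0 CPM at 0, 48, 72 and 96 h. It was highest at 48 h and lowest at 96 h, where the log2 ratio was -0.60. Covered length at 96 h was 3609 bp against 30622 bp at 0 h, a log2 ratio of -3.08, the largest loss of called length among the 10 genes. The promoter of Celf1 (chr2:90940382-91019497, plus strand) did not share this pattern. At its first start group it held 35.9, 30.6, 33.9 and 54.4 CPM, so the promoter was highest at 96 h while the gene as a whole was lowest, and 71.6% of the gene's counts lay at the promoter at 96 h against 32.6% at 0 h.

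Celf2, which spans 969870 bp (chr2:6539694-7509563, minus strand) and acts on exons of muscle and brain, was higher at its promoters after PHx. The promoter level was 29.2 CPM at 0 h (27.9 to 30.5), 34.3 CPM at 48 h (32.2 to 36.4), 54.9 CPM at 72 h (50.9 to 59.2) and 56.4 CPM at 96 h (51.2 to 62.1). The libraries of 72 and 96 h stood above the other 2 without overlap. Log2 ratios were 0.23, 0.90 and 0.94, and the covered length at 72 h differed from that at 0 h by only 0.08 on the log2 scale. Over the whole gene the levels were 130.4, 136, 184 and 155 CPM, with log2 ratios of 0.06, 0.49 and 0.24 that all stayed under 1.5-fold.

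Promoter peaks held 22.4%, 25.3%, 29.9% and 36.5% of the counts of Celf2 in time order, and most of these promoter counts came from 2 of its 5 start groups. The group 638 kb from the first base of the gene held 22.4, 22.3, 35.9 and 45.1 CPM, and the group at 428 kb held 5.56, 9.11, 12.9 and 11.3 CPM. Both were thus higher at 72 and 96 h than at 0 h. The group at 625 kb had no peak in any library. The promoter windows of these 2 open groups are shown because they differ in sequence: RefSeq (GRCm38.p6) windows of 250 bases before the start, chr2:6872036-6872285 and chr2:7081303-7081552, minus strand, written 5′ to 3′ with matches to the motifs searched in capitals.
Celf2, start group at 638 kb: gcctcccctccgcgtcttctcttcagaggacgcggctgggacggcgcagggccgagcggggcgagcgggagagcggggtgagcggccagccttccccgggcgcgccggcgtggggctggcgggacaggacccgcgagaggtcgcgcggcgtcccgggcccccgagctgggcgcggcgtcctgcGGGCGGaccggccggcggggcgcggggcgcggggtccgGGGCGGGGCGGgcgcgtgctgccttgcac
Celf2, start group at 428 kb: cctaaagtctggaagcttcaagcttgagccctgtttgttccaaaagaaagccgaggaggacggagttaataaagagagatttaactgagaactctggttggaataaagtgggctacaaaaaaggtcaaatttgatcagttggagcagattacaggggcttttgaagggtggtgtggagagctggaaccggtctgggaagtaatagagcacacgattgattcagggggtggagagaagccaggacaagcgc
The first holds 43 CpG dinucleotides and 82.8% G and C, and the second 5 CpG and 47.2%, against a median of 6 CpG over 32619 windows of the same length. Both lay under a peak in all 4 libraries.

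RefSeq windows matched 7 of the 10 genes, and Esrp1, Esrp2 and Rbfox2 were not matched. The motifs searched, on both strands, were the GC box GGGCGG, the CCAAT box, the ETS core CCGGAA, the cyclic AMP response element letters TGACGT and the TATA box TATAAA, which were present in 32.96%, 34.0%, 12.1%, 6.51% and 12.4% of all windows. Matches describe letters in these windows and not bound sites. Of all windows with a GC box 83.1% lay under a peak at 0 h, against 34.4% of those without one. The CpG-rich Celf2 window has 3 GC boxes, and the other Celf2 window holds none of the 5 motifs.

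Mbnl1 and Mbnl2, muscleblind proteins that promote adult exon choice, also went in different directions. Mbnl1 (chr3:60472830-60629750, plus strand) had 308.6 CPM at 0 h, 288 CPM at 48 h, 177 CPM at 72 h and 165 CPM at 96 h. The first 2 libraries lay close together and the last 2 well below them. Log2 ratios were -0.10, -0.80 and -0.90, and those of covered length -0.02, -1.13 and -2.51. In peaks of nearly equal length (5 regions at 72 h) the ratio at 72 h was -0.42, the same direction but short of 1.5-fold.

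The 4 start groups of Mbnl1 were used unequally. The first had no peak in any library. The second, 28.3 kb downstream, held 56.1, 46.9, 42.5 and 50.5 CPM, and the third, at 56.2 kb, held 50.9, 41.6, 24.8 and 23.4 CPM. The second group was lower at 48 h (44.5 to 49.4) and 72 h (38.9 to 46.3) than at 0 h (54.4 to 57.9). Its 96 h interval (45.5 to 55.8) overlapped that of 0 h. The third group was lowest at 72 and 96 h, where its peak was also shorter (7255, 6836, 3259 and 1623 bp in time order). The windows before the first 2 groups, chr3:60472580-60472829 and chr3:60500929-60501178 on the plus strand, are set side by side because 1 was never under a peak and the other always was.
Mbnl1, first start group: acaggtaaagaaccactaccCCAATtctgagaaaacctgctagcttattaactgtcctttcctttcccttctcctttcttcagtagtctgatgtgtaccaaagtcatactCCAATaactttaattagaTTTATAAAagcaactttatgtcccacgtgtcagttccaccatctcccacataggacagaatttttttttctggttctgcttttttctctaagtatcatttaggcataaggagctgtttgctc
Mbnl1, second start group: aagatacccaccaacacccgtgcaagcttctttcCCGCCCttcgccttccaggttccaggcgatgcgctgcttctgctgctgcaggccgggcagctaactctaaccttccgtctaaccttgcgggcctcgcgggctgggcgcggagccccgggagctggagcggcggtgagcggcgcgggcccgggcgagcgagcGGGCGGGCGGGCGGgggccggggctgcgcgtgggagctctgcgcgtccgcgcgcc
The window without a peak has 1 CpG and 38.0% G and C, with matches to the CCAAT and TATA boxes, and the open one has 33 CpG and 73.6%, with 4 GC boxes.

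Mbnl2 (chr14:120275669-120431697, plus strand) had 226 CPM at 0 h (223 to 229.8), 360.5 CPM at 48 h (354 to 367), 335 CPM at 72 h (325 to 346) and 271 CPM at 96 h (259 to 283). By gene it was highest at 48 h and above the 0 h level in all 3 later libraries. Its promoter level was 77.4, 114, 77.4 and 58.7 CPM, so at 96 h the promoter stood below 0 h, with a log2 ratio of -0.40 (-0.54 to -0.26), and with peaks within 500 bp of a start or whole merged regions that ratio was 0.14 and 0.22. By gene the log2 ratios were 0.67, 0.57 and 0.26. Peaks covered 41701 bp of it at 0 h but 79583 bp at 48 h, and per kb the ratio at 48 h was -0.26, so the higher level came with a longer stretch of called peaks. In 7 regions of nearly equal length the ratio at 48 h was 0.46, and in 10 such regions at 72 h it was 0.43, both under 1.5-fold. In the 2 such regions at 96 h it was -0.26, the opposite direction to the whole gene.

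Within Mbnl2 the first start group was steady, with 51.5, 56.6, 52.4 and 58.7 CPM. The groups inside the gene varied more. That at 22.005 kb held 12.5 CPM in 2418 bp at 0 h, 26.7 CPM in 7824 bp at 48 h and no called peak later, and that at 30.8 kb held 10.8, 22.4 and 21.6 CPM at 0, 48 and 72 h and none at 96 h. Most of the higher level of Mbnl2 at 48 h thus lay away from its first start group.

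**Figure D2:**
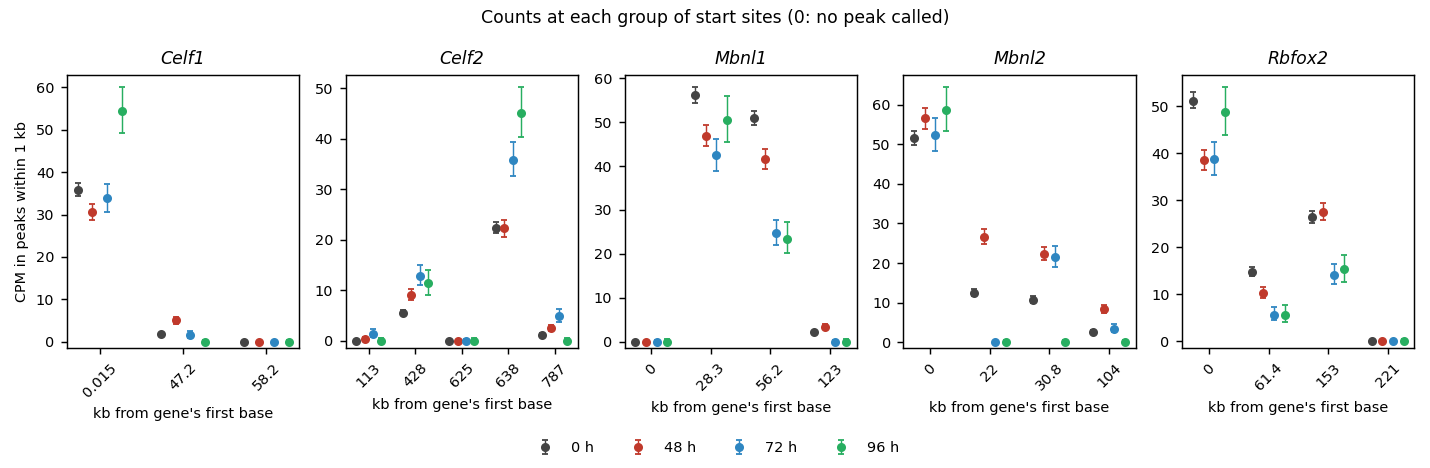
CPM in peaks within 1 kb of each group of start sites in the 5 members with more than 2 groups, by distance in kb from the first base of the gene, with 95% counting intervals and 1 colour per library. The first Mbnl2 group stays between 51.5 and 58.7 CPM, the second Mbnl2 group goes from 26.7 CPM at 48 h to no peak at 72 and 96 h, and the Celf2 group at 638 kb is highest at 96 h with 45.1 CPM.

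Rbfox2 (chr15:77078990-77307004, minus strand) was lower in each later library than in the one before it. Its levels were 309.8 CPM at 0 h (305.6 to 314), 259 CPM at 48 h (253 to 264), 176 CPM at 72 h (169 to 183) and 141 CPM at 96 h (133 to 149.9). Log2 ratios were -0.26, -0.81 and -1.13, and that of 96 h stood at percentile 7.52 of all genes tested. In regions of nearly equal length the ratio was -0.17 at 48 h (19 regions) and -0.03 at 72 h (1 region), and no such region existed at 96 h. Covered length was 53756, 54566, 28884 and 9880 bp. The first start group of Rbfox2 held the most CPM of its groups, with 51.2, 38.5, 38.7 and 48.7 CPM, so at 96 h this group was near its 0 h level. Over all its start groups the promoter level was 92.4, 76.3, 58.4 and 69.6 CPM, with a log2 ratio of -0.41 (-0.54 to -0.28) at 96 h. The group at 153 kb held 26.4, 27.5, 14.1 and 15.3 CPM in 4936, 5327, 2353 and 1019 bp, so both level and length were lower at 72 and 96 h.

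Ptbp1, the polypyrimidine tract binding protein (chr10:79854427-79864771, plus strand), was the most even member by counts. Levels were 92.8 CPM at 0 h (90.5 to 95.1), 98.6 CPM at 48 h (95.1 to 102), 84.6 CPM at 72 h (79.5 to 89.9) and 79.1 CPM at 96 h (72.9 to 85.8). No ratio to 0 h was larger in size than -0.23. Like Esrp2 it lay under 1 broad peak, of 14091 bp at 0 h and 15449 bp at 48 h, which was 2 peaks at 72 h and 4 at 96 h, 1 of them 14 bp long and without counts. Since only the peaks near its 2 start groups count for the promoter (1 at 72 h and 2 at 96 h), the promoter ratios were -0.86 at 72 h and -0.72 at 96 h, and with the whole merged region counted they were -0.13 and -0.23. The promoter ratios of Ptbp1 thus passed 1.5-fold only where the pieces of the split peak were not counted together.

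The SR proteins Srsf1 and Srsf3 had the lowest CPM by gene at 0 h after Esrp1. Srsf1 (chr11:88047373-88053755, plus strand) had a promoter level of 30.7 CPM at 0 h (29.4 to 32.0), 20.7 CPM at 48 h (19.1 to 22.3), 16.8 CPM at 72 h (14.6 to 19.3) and 26.0 CPM at 96 h (22.5 to 29.9). It was lowest at 72 h, and all 3 later libraries were below 0 h. Promoter ratios were -0.56, -0.85 and -0.24, the last with an interval of -0.46 to -0.03. By gene the levels were 31.9, 29.9996, 16.8 and 26.0 CPM, and the ratio at 48 h was -0.09, with an interval of -0.20 to 0.02 that includes no change. At 48 h the promoter ratio went with a covered length that was 0.30 higher on the log2 scale, so here fewer counts came from a longer peak. Per kb of covered peak the ratios at 48 h were -0.92 by gene and -0.87 by promoter. Srsf1 was the only member past 1.5-fold on that scale at 48 h, where 8.28% of genes were lower by gene and 7.82% by promoter.

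Srsf3 (chr17:29032628-29043373, plus strand) had the lowest ratios of the 10 genes at 72 h. The promoter level was 26.2 CPM at 0 h (25.03 to 27.5), 19.5 CPM at 48 h (17.9 to 21.1), 10.2 CPM at 72 h (8.53 to 12.2) and 11.4 CPM at 96 h (9.15 to 14.1). The 4 libraries fell into a higher pair, 0 and 48 h, and a lower pair, 72 and 96 h. Promoter ratios were -0.42, -1.32 and -1.16, at percentiles 20.8, 4.95 and 8.24 of 13509 genes tested. Covered promoter length was 4159, 3498, 1886 and 1149 bp, and per kb the levels were 6.31, 5.56, 5.43 and 9.96 CPM.

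At the level of the whole gene Srsf3 stood at 27.4, 41.2, 11.001 and 11.4 CPM, with a ratio of 0.58 at 48 h against the promoter's -0.42. Most of the difference came from 1 peak past the end of the gene. At 48 h it held 17.7 CPM and reached 192 bp into the gene, so it was counted. At 0 h the peak of the same region held 23.5 CPM and began 281 bp past the gene's end, so it was not. With that region counted in all libraries the levels were 50.8, 41.2, 23.5 and 20.6 CPM and the ratio at 48 h was -0.30, in the direction of the promoter. The Srsf3 window before the start, chr17:29032410-29032627 on the plus strand, is shown because this promoter had the lowest ratios of the 10 at 72 and 96 h.
Srsf3, start group: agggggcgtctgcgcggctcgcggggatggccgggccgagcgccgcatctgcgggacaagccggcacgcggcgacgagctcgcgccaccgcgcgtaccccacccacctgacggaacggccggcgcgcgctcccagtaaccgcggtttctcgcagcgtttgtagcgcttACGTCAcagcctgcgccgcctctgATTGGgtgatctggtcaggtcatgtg
The capitals mark, in this order, a match to TGACGT and a match to CCAAT, both on the reverse strand. The whole RefSeq window runs on past the 218 bases printed. It holds 35 CpG and, in the rest, a match to TATAAA 18 bases before the RefSeq start, and it lay under a peak in all 4 libraries.

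**Figure D3:**
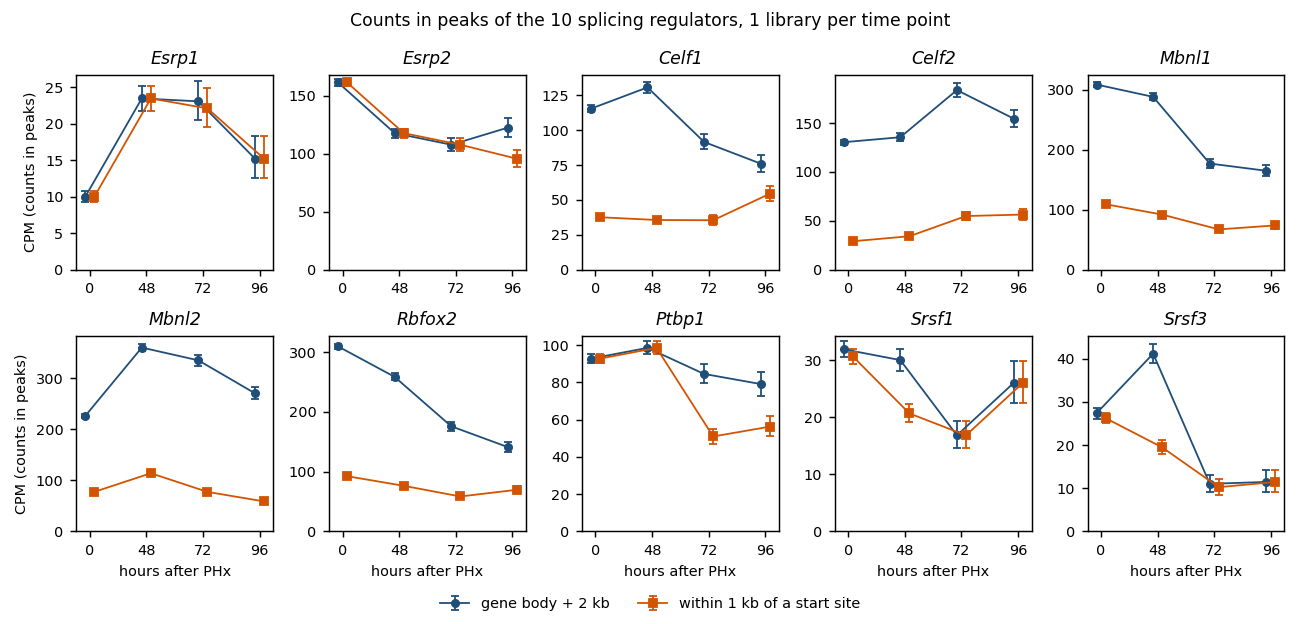
CPM of the 10 genes in the libraries of 0, 48, 72 and 96 h, for the gene body with 2 kb upstream (blue circles) and within 1 kb of a start site (orange squares), 1 library per time point, with 95% counting intervals. Esrp1 is lowest at 0 h (9.97 CPM) and Esrp2 highest at 0 h (161 CPM), and Srsf3 separates at 48 h into 41.2 CPM for the gene and 19.5 CPM for the promoter.

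Counted together at the gene level, 2 of 10 genes (Esrp1 and Mbnl2) were at least 1.5-fold higher at 48 h, where 13.6% of all genes tested were, and 0 of 10 were lower, against 7.19%. At 72 h 1 gene (Esrp1) was higher, against 19.8%, and 4 (Mbnl1, Rbfox2, Srsf1 and Srsf3) were lower, against 16.2%. At 96 h 0 were higher, against 18.4%, and 4 (Celf1, Mbnl1, Rbfox2 and Srsf3) were lower, against 17.6%. Close to the limit but not past it were Srsf3 at 48 h (1.496-fold) and Esrp1 at 96 h (1.499-fold) on the higher side and Esrp2 at 72 h (0.669-fold) on the lower side. The median log2 ratios of the 10 genes were 0.07, -0.46 and -0.34 beside -0.04, -0.02 and 0.08 over all genes tested.

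By promoter, 1 gene (Esrp1) was higher at 48 h, where 10.7% of 13509 genes were, and 0 were lower, against 9.52%. At 72 h Esrp1 and Celf2 were higher, against 14.6%, and Mbnl1, Rbfox2, Ptbp1, Srsf1 and Srsf3 were lower, against 19.1%. At 96 h Celf2 alone was higher, against 22.1%, and Esrp2, Ptbp1 and Srsf3 were lower, against 15.7%. Median ratios were -0.16, -0.62 and -0.40 for the 10 genes, beside -0.18, -0.11 and 0.18 for all genes. With 10 genes and 1 library a time point, the shares at 48 h cannot be told from those of all genes. The shares at 72 and 96 h have the same limit, and whether they differ from those of all genes was not tested. The 3 comparisons share the 0 h library.

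Where peaks of nearly equal length could be compared, no member was past 1.5-fold at the gene level. Such regions existed for 8 members at 48 h, 5 at 72 h and 2 at 96 h, and never for Esrp1 or Esrp2. The values of largest size were 0.46 for Mbnl2 at 48 h, 0.43 for Mbnl2 at 72 h and 0.58 for Celf2 at 96 h. At promoters Celf2 was past the limit, with 0.80 at 48 h and 1.07 at 72 h in 1 region each, and Mbnl2 with 0.83 at 72 h, also in 1 region. Over its whole promoter the Mbnl2 ratio at 72 h was 0.00, and its first start group held 51.5 and 52.4 CPM at 0 and 72 h. The Celf2 region compared is the minor start group at 428 kb, whose peak measured 1024, 1214 and 1084 bp at 0, 48 and 72 h. The larger group at 638 kb could not be compared this way, and it held nearly the same level at 0 and 48 h. Among all genes with such promoter regions 4.16% were higher and 1.80% lower at 48 h, and 9.62% and 8.96% at 72 h, and by gene 3.45% and 1.32%, 9.67% and 6.67%, and 28.5% and 6.51% at the 3 time points.

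**Figure D4:**
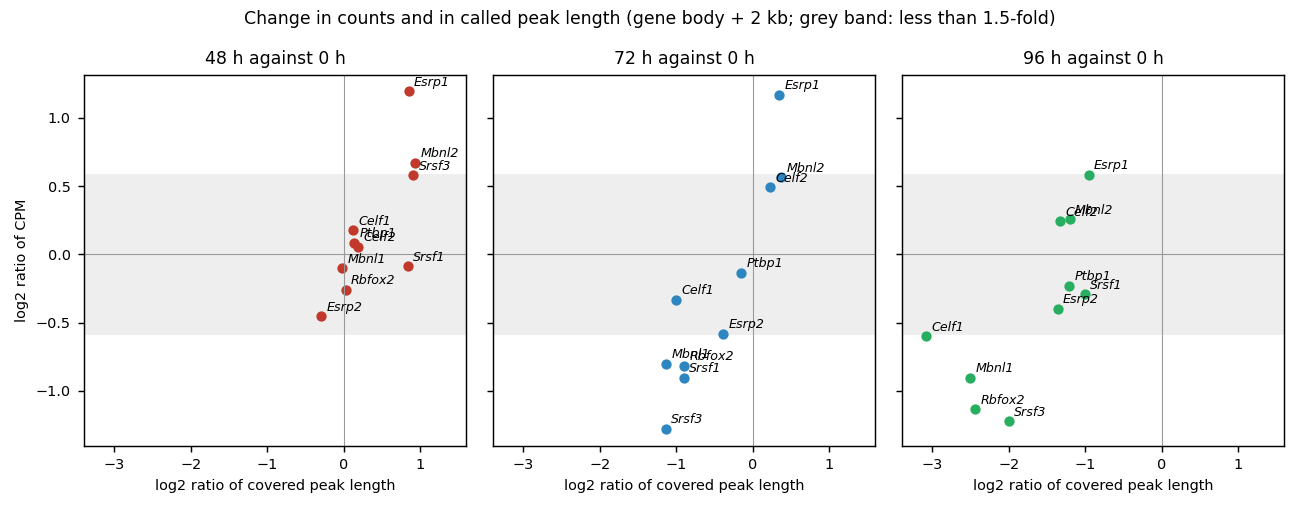
Log2 ratio of CPM (vertical) against log2 ratio of covered peak length (horizontal) for the 10 genes at 48, 72 and 96 h against 0 h, gene level. The grey band holds ratios under 1.5-fold; at 96 h every member has less covered length than at 0 h, from -0.96 for Esrp1 to -3.08 for Celf1.

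Levels per kb of covered peak gave an order of the members within each library. At 0 h Esrp2 (10.2 CPM per kb) and Srsf1 (9.45) stood above Ptbp1 (6.59), and Celf1 (3.77) and Esrp1 (3.07) were last. The intervals of Srsf3, Rbfox2 and Celf2, next to each other at 5.95, 5.76 and 5.74, overlapped. At 48 h Esrp2 (9.10) was first and Ptbp1 (6.38) second. At 72 h Srsf1 (9.33) and Esrp2 (8.89) led with overlapping intervals, and at 96 h Celf1 (21.1) and Esrp2 (19.8) did. Among all genes with a peak Esrp2 stood at percentiles 81.9, 88.3, 69.5 and 71.0, and Esrp1 at 7.55, 18.6, 24.1 and 4.65.

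Nuclei within 1 library share their peaks, so levels of nuclei of that library can be compared without the change in peak length. Clustering on 62447 regions that lie over none of these genes gave 8 clusters. They fell into 6 hepatocyte-like clusters, and 2 hepatocyte-low clusters in which 10 of 10 hepatocyte markers were at least 2-fold lower. Of the latter, cluster 6 had 5 of 10 endothelial markers at least 2-fold higher and cluster 7 had 2 of 3 measured myeloid markers with 2 of 10 endothelial ones higher and 2 lower, neither had a lymphoid or stellate marker at that level, and both stay unnamed. Hepatocyte-low nuclei numbered 299, 215, 287 and 81 at 0, 48, 72 and 96 h, with median counts of 3416, 2053, 1614 and 1286 against 28550.5, 12451, 5141 and 3780 in hepatocyte-like nuclei. The hepatocyte-like nuclei came mostly from clusters 3 and 5 at 0 h, 2 and 4 at 48 h, 1 and 4 at 72 h, and 0 at 96 h.

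Esrp2 was lower in hepatocyte-low than in hepatocyte-like nuclei of the first 3 libraries. The levels were 77.1 against 162 CPM at 0 h, 50.5 against 118 CPM at 48 h, 65.2 against 109 CPM at 72 h and 123 against 122 CPM at 96 h, the last from 14 counts. Log2 ratios were -1.07 (interval -1.45 to -0.73), -1.22 (-1.96 to -0.59), -0.73 (-1.48 to -0.08) and 0.01 (-1.31 to 1.06). With nuclei of at least 3000 counts the ratio at 72 h was 0.03, and hepatocyte-low nuclei of that depth gave no value at 96 h. Within hepatocyte-like nuclei alone the time course of Esrp2 was 162, 118, 109 and 122 CPM, and as these nuclei hold nearly all counts of each library this stands close to the values over all nuclei by construction.

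Ptbp1 was higher in hepatocyte-low nuclei in each library. The levels were 182 against 91.7 CPM at 0 h, 153 against 97.9 CPM at 48 h, 190.5 against 82.1 CPM at 72 h and 176 against 78.4 CPM at 96 h. The folds of 1.98, 1.56, 2.31 and 2.23 all had intervals above an equal level. Celf1, Mbnl1, Srsf1 and Srsf3 were also higher in 4 of 4 libraries, and these 5 genes stand beside 30.9% of all genes tested. For Celf1, Srsf1 and Srsf3 the interval lay above an equal level at 0 h only, and the fold of Celf1 at 48 h was 1.007. Mbnl1 had folds of 1.56, 1.44, 1.45 and 1.17.

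By gene Celf2 was lower in hepatocyte-low nuclei of all 4 libraries, as were 16.9% of genes tested, with log2 ratios of -0.75, -0.17, -0.50 and -0.44. Its intervals lay wholly under 0 at 0 and 72 h only, and its promoter did not share the direction, with -0.03, 0.31, 0.33 and 0.64 and intervals that all span 0. By gene at 0 h Celf2 had -1.51 (-2.26 to -0.86) in cluster 6 and -0.30 (-0.75 to 0.10) in cluster 7. Rbfox2 differed between the 2 hepatocyte-low clusters: at 0 h cluster 6 held 329 CPM and cluster 7 held 139 CPM, beside 311 CPM in hepatocyte-like nuclei, and at 48 h the values were 269, 106 and 259.8 CPM. Esrp1 rested on 4 to 32 counts in hepatocyte-low nuclei, and its direction was not the same in the 4 libraries. The part of depth in these differences was not tested.

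**Figure D5:**
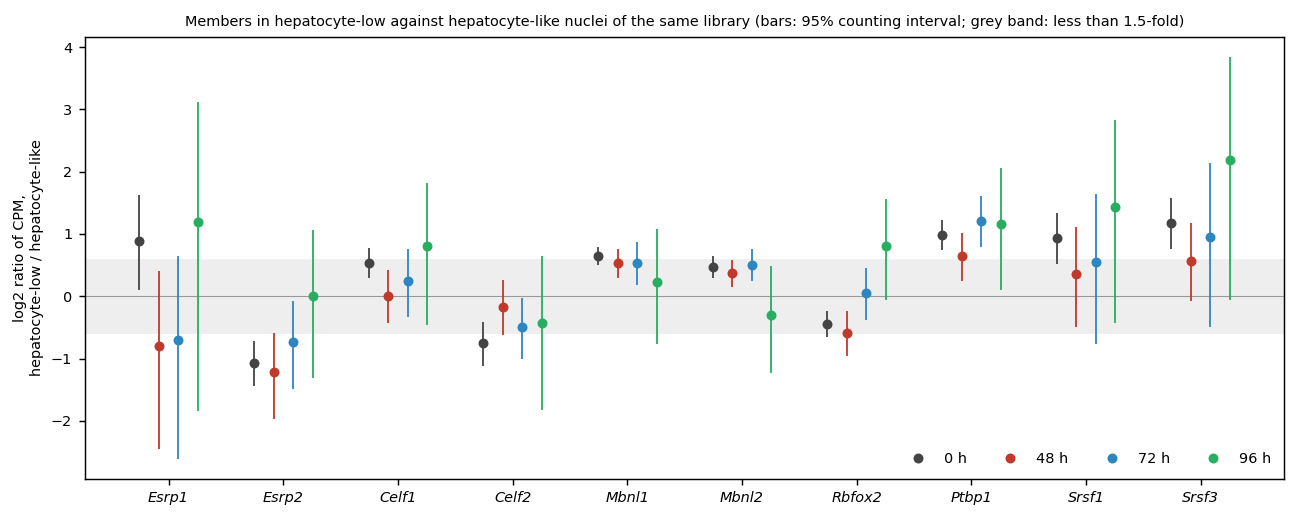
Log2 ratio of CPM in hepatocyte-low against hepatocyte-like nuclei of the same library for the 10 genes, 1 colour per library, with 95% counting intervals and a grey band for less than 1.5-fold. Ptbp1 lies above 0 in all 4 libraries (folds 1.56 to 2.31), and Esrp2 lies below 0 at 0, 48 and 72 h.

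The members can be read beside 47 other splicing regulators. At the gene level 7 were higher and 2 lower at 48 h, 8 and 17 at 72 h, and 7 and 13 at 96 h, with medians of -0.15, -0.41 and -0.22. Among all genes tested 13.6% were higher and 7.19% lower at 48 h, 19.8% and 16.2% at 72 h, and 18.4% and 17.6% at 96 h. Within the list at 72 h, 1 of 11 SR and SR-like genes was higher and 5 lower, 0 of 12 hnRNP genes higher and 4 lower, 4 of 7 paralogs of members higher and 0 lower, 3 of 13 other tissue or liver regulators higher and 5 lower, and 0 of 4 core recognition genes higher and 3 lower. By promoter 42 were tested, of which 3 and 3, 4 and 16, and 6 and 11 were higher and lower, beside 10.7% and 9.52%, 14.6% and 19.1%, and 22.1% and 15.7% of all genes. U2af1, a subunit of the factor that recognises the 3′ splice site, had the lowest log2 ratio of the 47 at 48 h, -1.22, with 50.04, 21.2, 13.0 and 18.7 CPM at the 4 time points. All 4 core recognition genes (U2af1, U2af2, Sf1 and Sf3b1) had lower promoters at 72 h.

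The other regulators past 1.5-fold that the same rule named were higher at 48 h except Rbfox1. Srsf6, an SR protein, had 40.9, 83.8, 45.02 and 57.7 CPM, and Hnrnpa1, an exon repressor, had 42.6, 74.1, 33.8 and 36.4 CPM. Both lay under a single peak of over 10 kb at 48 h (14646 and 11992 bp) against 3 shorter ones at 0 h. Celf3 and Celf5, paralogs of Celf1 that are best known from the brain, had 0.124, 20.9, 15.005 and 2.54 CPM and 25.4, 45.02, 52.7 and 21.6 CPM. The 0 h level of Celf3 lies below the pseudocount of 0.5 CPM. Celf3 reached the mean of 5 CPM needed for testing only through the libraries of 48 and 72 h. As peaks were called per library, its difference from 0 h cannot be told apart from a difference in called peaks. Rbfox1 had 78.6, 50.4, 68.7 and 68.8 CPM and was lower at 48 h.

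Genes whose transcripts Esrp proteins are known to splice (Fgfr2, Cd44, Ctnnd1, Enah, Nf2, Csnk1d, Yap1, Tead1 and Arhgef10l) gave no single direction. Of the 9, 2 were higher and 0 lower at 48 h, 3 and 1 at 72 h, and 1 and 2 at 96 h, with medians of 0.13, 0.29 and -0.41 beside -0.04, -0.02 and 0.08 over all genes. Shares over all genes were 13.6% and 7.19%, 19.8% and 16.2%, and 18.4% and 17.6%. The genes whose 3 ratios lay nearest to those of Esrp2 were Atp5g1, a subunit of ATP synthase, with 35.6, 25.5, 23.7 and 26.5 CPM, and Tmem209 and Ssmem1, which had identical values (19.3, 14.1, 12.8 and 14.8 CPM) because the same peaks touch both. The distance of Atp5g1 to Esrp2 over the 3 log2 ratios was 0.031.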

How the data were processed

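Chromatin accessibility was measured by scATAC-Seq in hepatocytes at PHx 0, 48, 72 and 96 h. The deposited counts are cut sites per peak and barcode, made by the authors with Cell Ranger ATAC 1.1.0 (file headers) on mm10 (the submitters' processing notes), with peaks called per library, and the deposited peak files hold other values, the peak positions. The sources used here do not give the cutoffs of the study's own nucleus filter.

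Counts were summed over barcodes with at least 1000 counts, per gene of GENCODE vM21, and divided by the summed counts of those barcodes. Genes with a mean of at least 5 CPM were tested for a ratio of 1.5-fold, with a pseudocount of 0.5 CPM, so that ratios of low genes are understated. Intervals are exact Poisson intervals, or Clopper-Pearson intervals for ratios, on fragments of 2 counts, and cover counting error only. Between 87.3% and 88.6% of the values were even. Nuclei were clustered by TF-IDF, 30 singular vectors, 30 neighbours and Leiden at resolution 0.5, without regions over members or listed genes. No doublet caller was run, and the deepest 5% of barcodes were left out as an alternative.

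Named genes were the 10 members, up to 4 other splicing regulators with the highest and 4 with the lowest ratio at 48 h past 1.5-fold, and the 3 genes with ratios nearest to Esrp2. The members and the lists (SR, hnRNP, paralogs, other tissue regulators, core recognition, genes spliced by Esrp proteins, cell type markers) were chosen with earlier results of these data known. Scripts were tested on simulated data. Python 3.11.15, numpy 2.4.6, scipy 1.17.1, pandas 2.3.3, scikit-learn 1.9.0, leidenalg 0.10.2 and matplotlib 3.10.9 were used.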

Additional observations from a re-analysis of the deposited data

How the results depend on the processing

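Of the 60 log2 ratios of members, 60 stayed within their 95% counting interval with barcodes of at least 3000 counts, with every barcode, with hepatocyte-like nuclei alone, without the 5% deepest barcodes, with a pseudocount of 2 CPM and without peaks over other start sites. The last of these settings removed no peak of any member, so its agreement was fixed in advance. It considers start sites of protein-coding genes only. Of the 60, 21 left that interval with median scaling, 15 with whole merged regions, 6 with the narrower window and 42 per kb of covered peak beside the 13 named below, as did 21 of the 25 that peaks of nearly equal length could give, 2 of them with the opposite sign (Srsf3 at 48 h, -0.28, and Mbnl2 at 96 h, -0.26, by gene). The one near 0, Mbnl2 by promoter at 72 h (0.00), took the other sign in the first 3 settings named (-0.02, -0.01 and -0.02), and calls changed next to the limit: Srsf3 at 48 h and Esrp1 at 96 h were gained and Celf1 at 96 h was lost in some of these settings. Members past 1.5-fold at 48, 72 and 96 h numbered 2, 5 and 4 by gene and 1, 7 and 4 by promoter. Per kb of covered peak they numbered 1, 2 and 10 by gene and 2 and 9 by promoter at 72 and 96 h, and in peaks of nearly equal length 0 of 8, 0 of 5 and 0 of 2 members with such a peak by gene and 2 of 3 by promoter at 72 h, while at 96 h no promoter could be tested, so its 0 says nothing. Per kb at 48 h the member past 1.5-fold was Srsf1, lower, by gene and by promoter, and Esrp1 and Mbnl2 were not past it there. With a 2-fold limit there were 1, 2 and 2 by gene and 2 and 1 by promoter at 72 and 96 h. Median scaling and a window of 500 bp each gave 2 by promoter at 48 h, median scaling 3 by gene at 48 h, and the gene body alone 5 at 96 h, where Esrp1 turned from 0.58 to -2.10. Whole merged regions, an alternative chosen after seeing the data, gave 4 and 2 by promoter at 72 and 96 h. Per kb, 28 of 60 ratios changed sign, 15 by gene and 13 by promoter. Of these 13 were past 1.5-fold before: by gene Mbnl2 at 48 h (-0.26), Mbnl1 (0.33) and Rbfox2 (0.0798) at 72 h, and Celf1 (2.48), Mbnl1 (1.602), Rbfox2 (1.31) and Srsf3 (0.74) at 96 h; by promoter Mbnl1 (0.0748), Rbfox2 (0.25) and Ptbp1 (0.21) at 72 h, and Esrp2 (1.21), Ptbp1 (1.11) and Srsf3 (0.66) at 96 h. Among the others by gene, Celf1 at 72 h went to 0.66, Srsf3 at 48 h to -0.31, and Esrp2, Ptbp1 and Srsf1 at 96 h to 0.97, 0.98 and 0.71. That scale raised 93.4% of all genes at 96 h by construction, since covered length was shorter there. Between nucleus classes, Esrp2 at 72 h was 0.0324 with at least 3000 counts, and at the same time Celf2 moved from -0.50 to -1.24, Mbnl2 from 0.50 to 0.85, Rbfox2 from 0.05 to -0.94 and Srsf3 from 0.94 to 2.35. The cause was not tested. No paired analysis was possible because each time point has 1 library. Hepatocyte-low values at 96 h rest on 81 nuclei with 113787 counts.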
